A study of Bos taurus with 8 samples.

Results

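The genes described here serve the cornified envelope and keratinization. The envelope is the protein shell that stratified squamous epithelia lay down beneath the plasma membrane of their outermost cells. The genes were chosen by symbol: TGM1, TGM3, IVL, EVPL, PPL, CNFN, CDSN, CASP14, ALOX12B and SPRR3. They are called envelope genes below for short, although CDSN encodes an adhesive protein on the outside of the cells. Of these 10 genes, 5 had a probe whose RefSeq accession was linked to the symbol, among 21475 probes and 7788 named genes on the array. These were TGM1 (NM_001010991), TGM3 (NM_001101848), IVL (NM_001105320), CNFN (NM_001075542) and CDSN (NM_001077950), each with 1 probe of 2 spots. No accession in the scanner output was linked to EVPL, PPL, CASP14, ALOX12B or SPRR3, and these 5 genes are not analysed here. Of 10176 probes with a RefSeq accession 8297 were linked to a symbol, so the array may measure these genes under accessions that the gene table does not hold, and nothing below speaks to them.

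The samples were rumen papillae of 4 lactating, ruminally cannulated Holstein cows in a crossover of 2 periods. In one period a cow was fed a ration with 40% concentrate (low-concentrate, LC), and in the other a ration with 70% (high-concentrate, HC). Papillae of the ventral sac were taken on day 21 of each period, 4 h after the morning feeding, which gave 8 arrays, 4 per diet, to ask how the share of concentrate changed gene expression in the rumen wall. Cows 1 and 2 received LC in period 1 and HC in period 2, and cows 3 and 4 received the diets in the reverse order. All 4 cows had been on a diet low in concentrate before the trial, so no group was without concentrate. The arrays of period 1 shared a slide and a scan, and so did those of period 2, so that period, slide and scan cannot be told apart.

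The rumen is lined by a stratified squamous epithelium that cornifies, although it also absorbs the acids of fermentation. As its cells move outward, they express envelope proteins such as involucrin, which transglutaminases cross-link to one another and to other proteins. Corneodesmosin is placed on the outside of these cells, where it holds neighbours together until proteases cut it and the cells are shed.

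The RNA carried the marks of such an epithelium. The basal keratins KRT14 and KRT15, and KRT6A of the suprabasal layer, exceeded background clearly on all 8 arrays by the scanner software's test, as did each of the 6 basal and 5 suprabasal genes with a probe. The probe of TP63, the transcription factor that defines squamous basal cells, was well above background on no array. Smooth muscle and stromal genes (9 of 9 with a probe) and 6 of 8 leukocyte genes passed the same test on every array, so the papillae were mixed tissue. In such bulk samples, fewer cells of a type and less RNA per cell cannot be told apart. The share of probes well above background ran from 76.9% to 81.2% per array and was lowest in cow 3 on LC, whose median intensity (92.1) was the lowest too (92.1 to 132 over the 8 arrays). In the table of normalized values, the columns named for cows 1 and 2 followed each other's arrays on both diets (r = 1.000 across probes, against 0.993 with the array of the same name). The names of these 2 cows are therefore uncertain, while their diets, periods and pairing are the same either way.

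Each of the 5 genes was well above background on every array, and no spot of theirs was saturated. The signals of IVL and TGM3 were read from the scan at low gain on all 8 arrays. The 2 spots of a probe differed by between 0.01 and 0.27 (log2), which is small beside most differences between cows given below. Signals are quantile-normalized log2 intensities, and they are compared between arrays for one probe, never between probes.

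Involucrin, encoded by IVL, is an early scaffold of the envelope. Its log2 signal on LC was 16.51 in cow 1, 16.51 in cow 2, 16.04 in cow 3 and 16.56 in cow 4, and on HC 16.57, 16.42, 16.58 and 16.23. Cow 3 on LC stood below the other 7 arrays, and the diets overlapped. HC minus LC was 0.04 (SE 0.15, 95% interval -0.32 to 0.41, unadjusted p = 0.777 in limma, which fits a linear model to each probe and shares the variance estimate among probes), and 2 of 4 cows were higher on HC. In this fit, which leaves out the pairing by cow, the interval excludes a fold change of 1.5 in either direction. With the cow as a block and unmoderated variance the SE was 0.22, so the exclusion is stated only for the fit without the block.

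CNFN encodes cornifelin, a small protein of the envelope. Its log2 signal on LC was 9.77, 9.83, 8.75 and 9.46 in cows 1 to 4, and on HC it was 10.15, 9.71, 8.96 and 9.43. Cow 3 was the lowest on both diets, cow 4 was next on both, and the diets overlapped. The diet difference was 0.11 (SE 0.21, 95% interval -0.39 to 0.61, limma, unadjusted p = 0.604), and 2 of 4 cows were higher on HC.

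CDSN encodes corneodesmosin, the adhesive protein of the corneodesmosome. Its log2 signal on LC was 9.87, 9.72, 8.17 and 7.83 in cows 1 to 4, and on HC it was 9.22, 9.17, 9.25 and 7.995. Cow 4 was low on both diets, while cow 3 was low on LC and level with cows 1 and 2 on HC. HC minus LC was 0.01 (SE 0.27, 95% interval -0.65 to 0.67, limma, unadjusted p = 0.970). Within a cow this difference also holds the period. It was -0.65 and -0.56 in cows 1 and 2, which were fed HC in period 2. In cows 3 and 4, fed HC in period 1, it was 1.08 and 0.17, and its SD over the 4 cows was 0.80.

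TGM1 and TGM3 encode transglutaminases, the enzymes that cross-link the envelope. The log2 signal of TGM1, the membrane-bound enzyme, was 11.19, 11.48, 10.43 and 11.25 on LC in cows 1 to 4, and 11.17, 10.93, 10.96 and 11.10 on HC. The HC arrays lay close together (SD 0.11, n = 4), and the LC arrays lay further apart (SD 0.46, n = 4), with cow 3 lowest and cow 2 highest. Between the diets it differed by -0.05 (HC minus LC, SE 0.20, 95% interval -0.53 to 0.44, limma, unadjusted p = 0.821), and 1 of 4 cows was higher on HC. This interval also excludes a fold change of 1.5, again only in the fit without the cow. The SE was 0.22 with the cow as a block and unmoderated variance.

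The log2 signal of TGM3, the soluble epidermal-type enzyme, was 15.97, 16.15, 14.58 and 16.11 on LC in cows 1 to 4, and 16.69, 16.62, 14.74 and 15.62 on HC. Cow 3 was lower than every array of the other cows on both diets. The diet difference was 0.22 (SE 0.36, 95% interval -0.66 to 1.09, limma, unadjusted p = 0.573). Cows 1 to 3 had more signal on HC, by 0.72, 0.47 and 0.17, while cow 4 gave -0.49, so that the mean difference lay within the spread between cows.

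**Figure D1:**
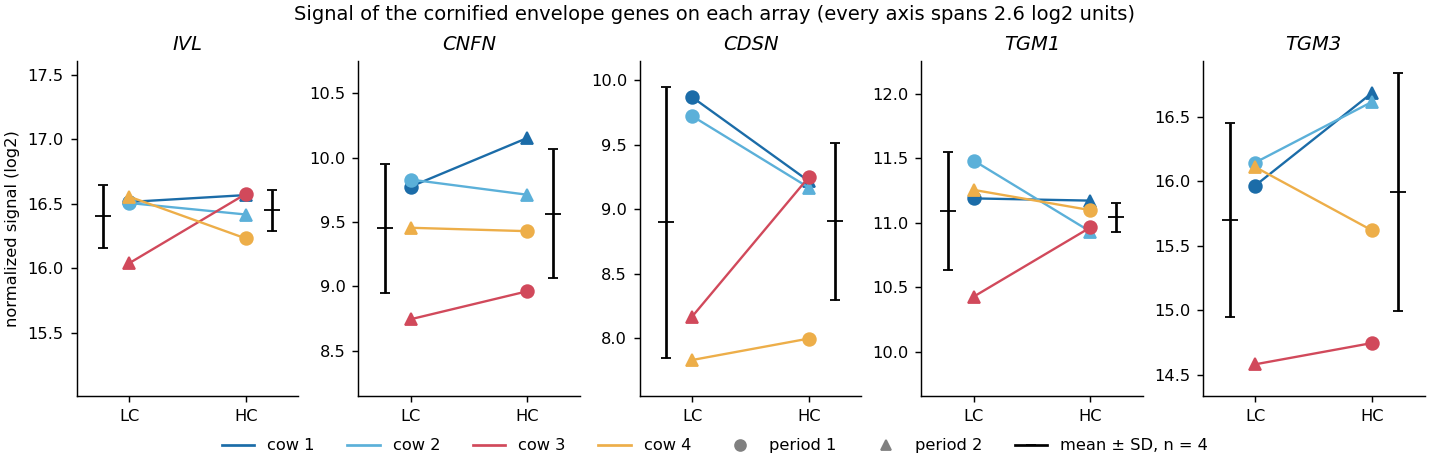
Normalized log2 signal (y axis) of IVL, CNFN, CDSN, TGM1 and TGM3 on the LC and HC arrays (x axis), with a line for each of the 4 cows, circles for period 1, triangles for period 2, and black bars for the mean ± SD of the 4 arrays of a diet. Every y axis spans 2.6 log2 units from a different start, and the red line of cow 3 lies lowest for CNFN and TGM3 on both diets.

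None of the 5 genes with a linked probe was called for diet. For a call, the study's rule was applied, with thresholds of 1.5 for the fold change and 0.05 for the unadjusted p, which 198 of 21475 probes (0.922%) passed. The count at an unadjusted p under 0.05 was 0 of 5 as well, against 3.65% of all probes, and the adjusted p (Benjamini-Hochberg over all probes) of all 5 genes was 1.00 in limma. A two-sided exact permutation test of 4 arrays against 4 gave p = 0.743 for IVL, 0.800 for CNFN, 1.00 for CDSN, 0.857 for TGM1 and 0.657 for TGM3. The smallest p that such an unpaired test can give is 0.0286. It shuffled arrays across cows, so it left out the pairing of the crossover. The arrays of the diets overlapped for all 5 genes, and they did not overlap for 1.60% of all probes. The median diet difference was 0.04 over the 5 genes and 0.00 over all probes.

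Within the periods, the differences of all 5 genes were negative in period 1 and positive in period 2. Within period 1, HC minus LC compares cows 3 and 4 with cows 1 and 2, and within period 2 the reverse. It was -1.17 for CDSN in period 1 (limma, unadjusted p = 0.0638) and 1.19 in period 2 (unadjusted p = 0.00202). For CNFN it was -0.61 in period 1 (unadjusted p = 0.0407) and 0.83 in period 2, and for TGM3 it was -0.87 (unadjusted p = 0.0600) and 1.31 (unadjusted p = 0.0679). IVL gave -0.11 and 0.20, and TGM1 gave -0.30 and 0.21. In each period, 1 of the 5 genes passed both thresholds, CNFN lower in period 1 (3.53% of all probes passed) and CDSN higher in period 2 (3.78%). Cow and diet cannot be told apart within a period.

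The period itself called none of the 5 genes, against 3.86% of all probes. Period 2 minus period 1 was -0.61 for CDSN (SE 0.27, limma, unadjusted p = 0.0633, adjusted p = 0.449), and all 4 cows were lower in period 2. Over all probes, 0.0419% had an adjusted p under 0.05 for period. With the cow as a block, the same difference of CDSN passed both thresholds (limma, unadjusted p = 0.0215, adjusted p = 0.241), as 4.48% of all probes did, but not when the variance was left unmoderated (unadjusted p = 0.117). The other 4 genes had period differences of -0.24 (TGM1), -0.06 (IVL), 0.02 (CNFN) and 0.38 (TGM3), with unadjusted p from 0.278 to 0.936 in limma. Single arrays moved these values: without cow 4 on HC the CDSN difference was -0.93, and without cow 3 on LC the TGM3 difference was 0.75, and both then passed both thresholds.

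In this crossover the interaction of diet with period is the contrast of cows 1 and 2 with cows 3 and 4, and it lies between cows. All 5 genes were higher in cows 1 and 2, and 3 of 5 passed both thresholds, against 2.93% of all probes (10.2% at the p threshold alone). The difference was 1.18 for CDSN (SE 0.27, 95% interval 0.52 to 1.84, limma, unadjusted p = 0.00442), which is a fold change of 2.27. For CNFN it was 0.72 (SE 0.21, interval 0.22 to 1.22, unadjusted p = 0.0123), and for TGM3 it was 1.09 (SE 0.36, interval 0.21 to 1.97, unadjusted p = 0.0226). The adjusted p of the 5 genes lay between 0.350 and 0.751, so that none of these differences held after adjustment, as 0.0373% of the probes did. TGM1 (0.26, unadjusted p = 0.243) and IVL (0.15, unadjusted p = 0.351) did not pass.

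The 2 arrays of a cow are not independent, so the same contrast was also fitted to the 4 cow means. CDSN (limma, unadjusted p = 0.0149) and CNFN (unadjusted p = 0.0372) passed, TGM3 did not (unadjusted p = 0.0614), and the adjusted p of all 3 was 0.817. Probes past both thresholds made up 2.48% in that fit. Without cow 3 on LC the CNFN difference was 0.54, short of the fold threshold, and TGM3 missed the p threshold without cow 1, 2 or 3 on HC or cow 2 on LC (differences of 0.87 to 1.11). The 4 arrays of cows 1 and 2 lay above those of cows 3 and 4 for CNFN (9.71 to 10.15 against 8.75 to 9.46), which was the case in either direction for 5.63% of all probes. For CDSN and TGM3 the pairs of cows overlapped, through cow 3 on HC for CDSN and cow 4 on LC for TGM3.

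**Figure D2:**
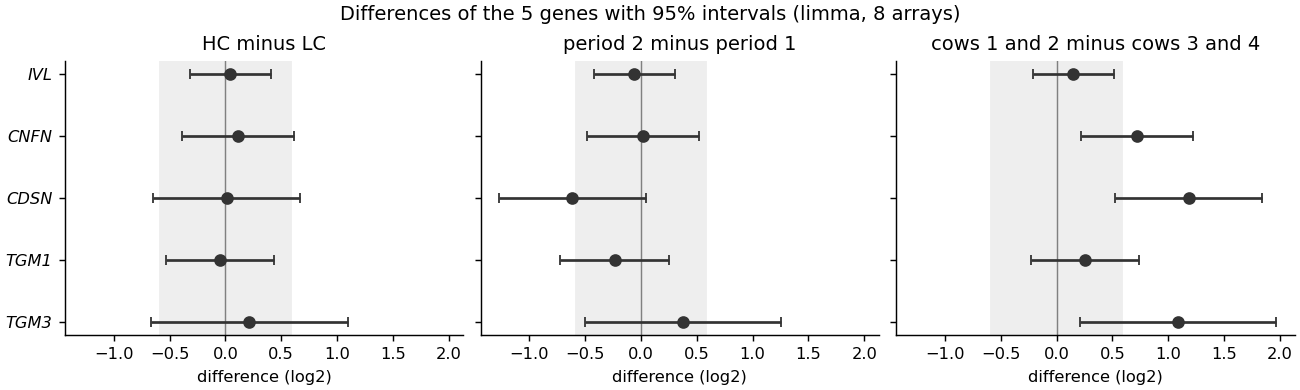
Differences (log2, x axis) of the 5 genes between the diets, the periods and the pairs of cows, with points for the limma estimates from 8 arrays, bars for 95% intervals and grey for a fold change under 1.5. The diet and period intervals all cross 0, whereas those of CDSN, CNFN and TGM3 between the pairs of cows lie above it.

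Cows 3 and 4 both had lower means than cows 1 and 2 for TGM3, CNFN and CDSN, but their order differed. The mean of a cow's 2 arrays was 14.66 for TGM3 in cow 3, against 15.86 in cow 4, 16.33 in cow 1 and 16.38 in cow 2. For CNFN the order was the same at the bottom, with 8.85 in cow 3, 9.44 in cow 4, 9.77 in cow 2 and 9.96 in cow 1. For CDSN cow 4 was lowest (7.91), then cow 3 (8.71), and cows 2 and 1 (9.44 and 9.54) did not differ beyond the differences within a cow.

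For TGM1 the means of cows 1, 2 and 4 lay at 11.18, 11.21 and 11.18, and that of cow 3 at 10.695. IVL had the narrowest range of cow means, from 16.31 in cow 3 to 16.54 in cow 1. The cow means of TGM3 spanned 1.72, against a largest difference of 0.72 between the diets within a cow. The same spans were 1.11 against 0.38 for CNFN, and 1.63 against 1.08 for CDSN. For TGM1 (0.51 against 0.55) and IVL (0.23 against 0.54) the cows differed by less than a cow differed between its own arrays. Over the 16030 probes detected (well above background) on every array, the median was 0.33 against 0.37.

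The share of each gene's sum of squares over the 8 arrays shows the same split. Differences between cows held 93.3% for CNFN, 88.4% for TGM3, 78.1% for CDSN, 54.1% for TGM1 and 22.5% for IVL, where the median probe had 52.9%. Diet held 2.15% or less for each of the 5 genes, and the median probe had 5.12%. For IVL, 73.0% was left after cow, diet and period.

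An F test of the cow beside diet and period, which was added after the values had been seen, gave an unadjusted p of 0.00216 for TGM3, 0.00610 for CDSN and 0.00880 for CNFN in limma. These are 3 of 5 genes, and 16.3% of all probes had an unadjusted p under 0.05 in this test. The adjusted p was 0.144, 0.182 and 0.196, and 0.158% of the probes had an adjusted p under 0.05. TGM1 (unadjusted p = 0.229) and IVL (unadjusted p = 0.794) did not pass.

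**Figure D3:**
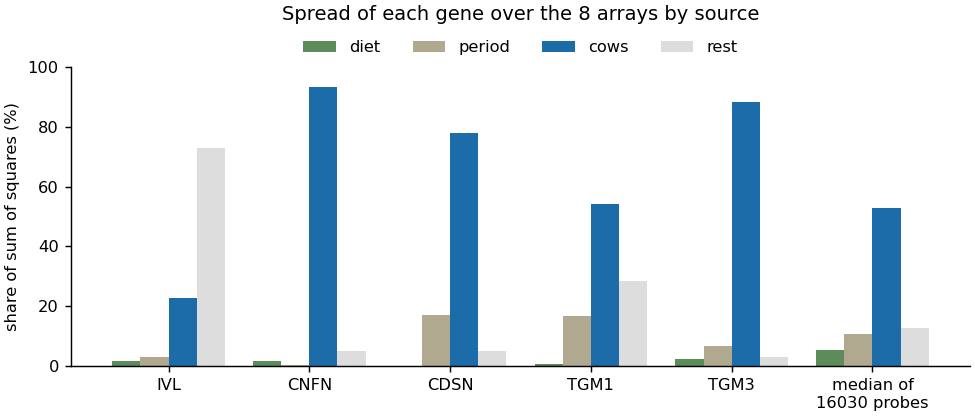
Share of the sum of squares over the 8 arrays (%, y axis) that diet, period, cows and the rest hold for each of the 5 genes, beside the median share over 16030 probes, whose medians need not add up to the whole. Cows hold the largest share for CNFN, CDSN, TGM1 and TGM3, and the rest does for IVL.

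Cow 3 was also compared with the other cows on the marker lists, after its values for the envelope genes had been seen. The share of all probes that set a cow apart in this way was not taken. The mean level of the 6 basal genes, relative to each gene's mean, was 0.15 and 0.32 on the 2 arrays of cow 3 and -0.31 to 0.11 on the other 6 arrays. That of the 5 suprabasal genes was -0.26 and -0.15 in cow 3 and -0.01 to 0.16 elsewhere. The 6 cell division genes gave -0.44 and -0.13 in cow 3 against -0.03 to 0.38, and the 6 leukocyte genes -0.25 and -0.13 against -0.05 to 0.36.

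The 9 smooth muscle and stromal genes, at 0.00 to 0.14 in cow 3 and -0.17 to 0.13 elsewhere, overlapped. None of these lists had a gene called for diet. Between the pairs of cows, the basal list had a median difference of -0.33 and the cell division list one of 0.26, with no gene of either past both thresholds. Of the 6 basal genes 1 was higher in cows 1 and 2, and of the 6 cell division genes 5 were. The part of cell makeup in the differences between cows was not tested.

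Over the 8 arrays, which share cows and slides, TGM3 and CNFN varied most alike (Pearson r = 0.93), followed by TGM1 and IVL (r = 0.74) and TGM1 and CNFN (r = 0.73). CDSN followed TGM3 least (r = 0.30). TGM3 had the widest range of the 5 genes (2.11), above that of 98.5% of the probes detected on every array, and CDSN followed (2.04, above 98.3%). Among 6469 other named genes on all 8 arrays, those most like TGM3 were CENPQ (r = 0.98), SLC25A17 (r = 0.98), SLC35B1 (r = 0.97), CDC6 (r = 0.97) and SLC33A1 (r = 0.97). CENPQ encodes a kinetochore protein and CDC6 a factor that licenses DNA replication, while SLC25A17, SLC35B1 and SLC33A1 encode transporters of organelle membranes. CNFN ranked 32. The 6 genes of the cell division list were spread from MCM5 and PCNA at ranks 15 and 20 (r = 0.96 and 0.94), through CDK1 (620) and BIRC5 (986), to AURKA (2521, r = 0.20) and CCNB2 (3737, r = -0.10). These correlations rest on 4 cows.

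The other genes of cornification were taken from 7 lists of 134 symbols, of which 54 had a probe, 48 of them detected on every array. No gene of the 54 passed both thresholds for diet (0.922% of all probes did), and 1 had an unadjusted p under 0.05. The median diet difference over the 48 genes was 0.05, and it was 0.00 over all probes on all 8 arrays. None of the 7 listed S100-fused proteins, the family of filaggrin, had a probe linked to it. The probe of LORICRIN, the main envelope protein of skin, was well above background on no array, so no level or fold change is given.

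Among the 6 other cross-linkers and envelope proteins with a probe, TGM2 had the largest diet difference. TGM2 encodes tissue transglutaminase, which is expressed in many cell types. Its log2 signal on LC was 10.71, 10.47, 9.69 and 9.93 in cows 1 to 4, and on HC it was 10.86, 11.09, 10.09 and 10.48. Each of the 4 cows was higher on HC, although the diets overlapped. HC minus LC was 0.43 (SE 0.14, limma, unadjusted p = 0.0185, adjusted p = 1.00), short of a fold change of 1.5. TGM2 was also 0.73 higher in cows 1 and 2 (limma, unadjusted p = 0.00151, adjusted p = 0.291).

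CSTA encodes cystatin A, a protease inhibitor that is built into the envelope, and it ran the other way between the cows. Its log2 signal was 9.12 on LC and 9.05 on HC in cow 4, and it lay between 6.70 and 7.66 on the 6 arrays of the other cows. It was 1.29 lower in cows 1 and 2 than in cows 3 and 4 (limma, unadjusted p = 0.0346, adjusted p = 0.466), a difference that lay mostly in cow 4. On the 4 cow means CSTA did not pass (unadjusted p = 0.0823). Diet changed its mean by 0.01.

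Of the proteases and adhesion proteins of shedding, 10 genes had a probe, 8 of them detected on every array. KLK10, a member of the kallikrein family of secreted proteases, had the largest diet difference of any listed gene. Its log2 signal on LC was 9.14, 8.47, 5.31 and 9.61 in cows 1 to 4, and on HC it was 10.33, 9.04, 6.02 and 10.17. All 4 cows were higher on HC, by 1.19, 0.57, 0.71 and 0.56, but cow 3 lay far below the others on both diets.

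The diet difference of KLK10 was 0.76 (limma, unadjusted p = 0.560), and with the cow as a block the same difference passed both thresholds (limma, unadjusted p = 0.00365, adjusted p = 0.843), as 1.29% of all probes did, also with unmoderated variance (unadjusted p = 0.0407). The spread between its cows was past the adjusted threshold in the F test added later (limma, adjusted p = 0.0353), and it was the 1 gene of the 54 for which that held. An unadjusted p under 0.05 in that test was reached by 20 of the 54 genes, against 16.3% of all probes.

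KLK12, another kallikrein, was 0.85 higher in cows 1 and 2 (limma, unadjusted p = 0.0259, adjusted p = 0.445), and on the 4 cow means it did not pass (unadjusted p = 0.0687). Cow 1 gave 9.02 on LC and 9.62 on HC, and the other 6 arrays lay between 7.80 and 8.47. DSG1, which encodes the desmosomal cadherin of the upper layers, was picked out after its values were seen. Its log2 signal on LC was 12.21, 10.03, 10.01 and 12.26 in cows 1 to 4, and on HC it was 9.64, 9.13, 10.27 and 12.92. Cow 4 was high on both diets, and cow 1 was high on LC alone. HC minus LC was -0.64 (limma, unadjusted p = 0.471). Period 2 minus period 1 was -1.09, with the largest difference in cow 1 (-2.57). It passed both thresholds with the cow as a block (limma, unadjusted p = 0.0193, adjusted p = 0.234), as 4.48% of all probes did. It did not pass with the block and unmoderated variance (unadjusted p = 0.127) or without the block (unadjusted p = 0.234).

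The corneocyte processing list held the 1 gene of the 54 called for period, where 3.86% of all probes were called. DNASE1L2 encodes a nuclease known for breaking down DNA as keratinocytes lose their nuclei. Its log2 signal was between 4.92 and 5.40 on the arrays of period 1 and between 4.01 and 4.38 on those of period 2, so the periods did not overlap. The share of all probes without such overlap was not taken. The difference was -0.95 (limma, unadjusted p = 1.1e-04, adjusted p = 0.0664), in all 4 cows. Its diet difference was -0.13, the largest of this list.

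In the barrier lipid list, no gene of 11 was called for diet, and the largest difference among the 10 detected on every array was 0.19, for ELOVL4, an elongase of very long fatty acids. CYP4F22, the hydroxylase of the fatty acids of skin ceramides, was 0.81 higher in cows 1 and 2 (limma, unadjusted p = 0.00935, adjusted p = 0.369). It was lowest in cow 3 (5.08 on LC and 5.27 on HC), and it lay between 5.71 and 6.61 in the other cows. The 10 surface and secreted genes of keratinocyte differentiation all had positive diet differences, of 0.02 to 0.33 with a median of 0.11, and none was called. Of the 16030 probes detected on every array, 8006 had a positive difference. The 10 genes were read on the same 4 cows and are not independent. The largest difference of this list was that of CLIC3, a chloride channel protein. Of 12 regulators, 11 were detected on every array, none was called in any comparison, and OVOL1, a transcription factor of epidermal differentiation, had the largest diet difference at -0.28.

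**Figure D4:**
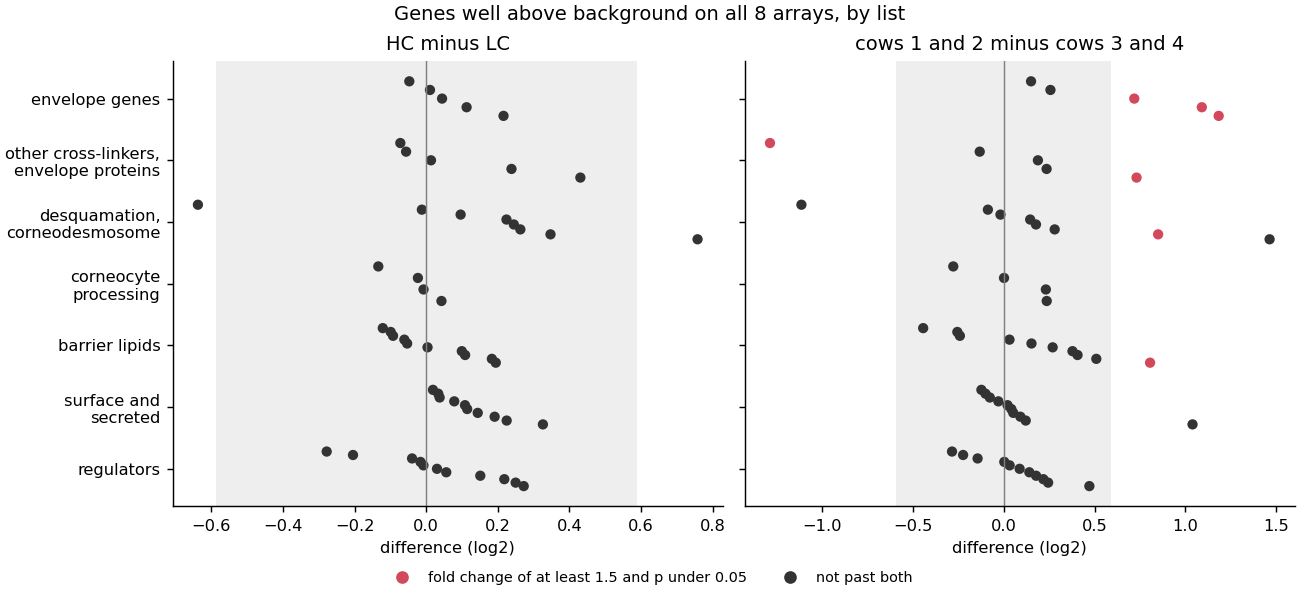
Differences (log2, x axis) between the diets and between the pairs of cows for the genes detected on every array, in the 5 envelope genes and 6 lists of other cornification genes (y axis), with red for genes past both thresholds, and grey for a fold change under 1.5. No point is red for diet, and 7 are red between the pairs of cows, 3 of them envelope genes.

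**Figure D5:**
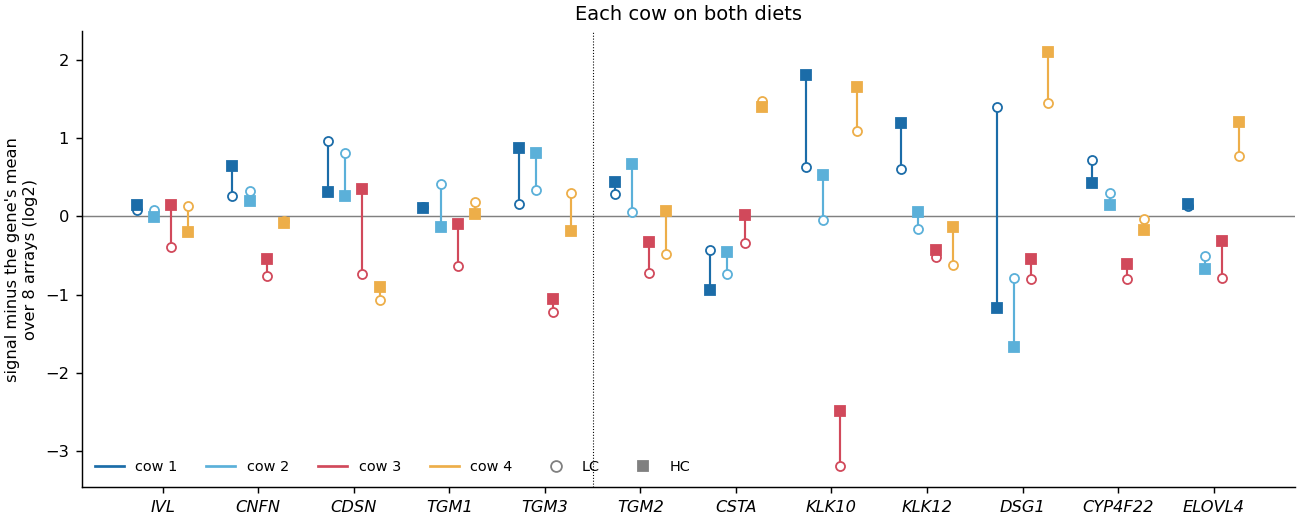
Signal minus the mean of the gene over the 8 arrays (log2, y axis) for the 5 envelope genes and, right of the dotted line, 7 other genes (x axis), with the LC (open circles) and HC (filled squares) arrays of each of the 4 cows joined by a line. Cow 3 is lowest for CNFN and TGM3 on both diets and lies farthest from the rest for KLK10, while cow 4 is highest for CSTA and DSG1 and lowest for CDSN.

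Over the 54 other genes, the interaction called 3 higher and 1 lower in cows 1 and 2, against 1.49% and 1.44% of all probes. Those higher were TGM2, KLK12 and CYP4F22, and the lower was CSTA. On the 4 cow means, 2 of these 4 passed (TGM2 and CYP4F22). The envelope genes and these 4 genes did not order the cows in one way. By the mean of a cow's 2 arrays, cow 3 was lowest for TGM3, CNFN, TGM1, IVL, TGM2, KLK12 and CYP4F22. By the same mean, cow 4 was lowest for CDSN and highest for CSTA. Single arrays did not all follow the means: on HC cow 3 was highest for IVL (16.58) and cow 2 lowest for TGM1 (10.93). On LC cow 4 was lowest for KLK12 (7.80).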

How the data were processed

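RNA of rumen papillae was measured on 8 one-colour Agilent bovine oligonucleotide arrays (4 per diet, 4 per slide), and the labels gave the diet, cow and period of each. For each array the authors deposited the spot intensity after background subtraction from Feature Extraction 10.7.3.1, not normalized between arrays. A table of quantile-normalized log2 values that the authors deposited beside it was an alternative here. Precision was limited by the number of arrays.

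Control and outlier spots were dropped, log2 intensities were quantile-normalized, and a probe's spots were averaged. Probes were named through RefSeq accessions (ARS-UCD2.0 gene table), which matched 8297 of 10176. The brightest probe of a gene was used, and no filter was applied. The model in limma 3.58.1 (R 4.3.3) had terms for diet, for period and for their interaction (no trend, not robust, with 4 residual and 2.26 prior degrees of freedom), after the model of the study, with Benjamini-Hochberg adjustment over 21475 probes. Single genes had an exact two-sided permutation test, which went through all splits of the arrays into 4 and 4 in R. The fit was tested on simulated data. Python 3.11.15, pandas 2.3.3 and matplotlib 3.10.9 were used.

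The pairing by cow came from the labels. Deviations from the diet means correlated at 0.113 to 0.467 between the 2 arrays of a cow over 16030 probes, and at -0.237 to 0.185 between cows, so a fit with the cow as a block was an alternative.

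The members and lists were chosen with earlier results of these data known. Named were all members, every listed gene past both thresholds in a comparison, the largest diet difference of each list, and the 5 genes most like the member of widest range. DSG1, MCM5 and PCNA were named after their values were seen. Alternatives were the background correction (normexp, offset 50, on median signals), 75th percentile scaling, a filter for probes well above background on at least 4 arrays, the terms of the model, each period alone, and leaving out each array. Positions and sequences are not given.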

Additional observations from a re-analysis of the deposited data

Results flagged for a closer look

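Of the 10 groups of 4 arrays formed by the 5 envelope genes and the 2 diets, 3 had one array apart from the other 3 by Dixon's test. TGM3 on LC was lowest in cow 3, at 14.58 (log2), IVL on LC was lowest in cow 3, at 16.04, and CDSN on HC was lowest in cow 4, at 7.995. Chance flags about 1 in 20 such groups, and of the 24 groups of the other named genes 0 were set apart. The flags of TGM3 and IVL fell on the same array, cow 3 on LC, whose median intensity was the lowest (92.1). The groups share cows and arrays and the share over all probes was not taken, so the count is no result of its own.

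The interaction of diet with period is here the contrast of cows 1 and 2 with cows 3 and 4. It cannot show whether the diet difference depended on the period. Its unadjusted p was under 0.05 in limma for 9 of 17 named genes, where 10.2% of all probes passed. Of these 9 genes, 6 had been named for passing this comparison or after their values were seen, so the count is no result of its own. The log2 difference was 1.09 for TGM3, 0.72 for CNFN and 1.18 for CDSN among the envelope genes. It was 0.73 for TGM2, -1.29 for CSTA, 0.85 for KLK12 and 0.81 for CYP4F22 among the other cornification genes, and 0.55 for MCM5 and 0.51 for PCNA, which were named for their likeness to TGM3.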

How the results depend on the processing

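The diet difference of no envelope gene was called under any setting that used both periods, including the deposited table, the 75th percentile scaling and the filter. With normexp correction the sign turned for CDSN (-0.013) and IVL (-0.0013). Each period alone turned CDSN (-1.17), CNFN (-0.61), IVL (-0.11) and TGM3 (-0.87) in period 1 and TGM1 (0.21) in period 2, took CDSN past the threshold in period 2 (1.19), and gave 1 envelope gene called in either period. Leaving out each array gave diet differences of -0.30 to 0.33 (CDSN), -0.064 to 0.29 (CNFN), -0.087 to 0.17 (IVL), -0.26 to 0.16 (TGM1) and -0.16 to 0.60 (TGM3), and 0 calls throughout. The period differences of CNFN (-0.16 to 0.19), IVL (-0.19 to 0.068) and TGM3 (-0.00054 to 0.75) turned in some of these, and without cow 4 on HC that of CDSN was -0.93 and called, as was that of TGM3 (0.75) without cow 3 on LC, so that 0 to 1 envelope gene was called for period. With the cow as a replicate block, fixed or random, 1 envelope gene (CDSN) was called for period in place of 0, and 0 with the fixed block without moderation (unadjusted p = 0.117), while no call for diet among the 5 genes changed.

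Between the pairs of cows, CDSN kept its call under every setting. TGM3 (1.09) lost it without moderation of the variance (unadjusted p = 0.0696), on cow means, and without cow 1, 2 or 3 on HC or cow 2 on LC, so 2 to 3 envelope genes were called. Of the other cornification genes, 0 were called for diet, 1 with the cow as a fixed block (KLK10, with or without moderation), 1 in period 1 alone (CYP4F22), 3 in period 2 alone (TGM2, KLK12 and LY6D), and 0 to 1 on leaving out each array. Their calls between the pairs of cows ranged from 2 to 5 and those for period from 0 to 4. The cause of these changes was not tested. The intervals given came from the fit without the cow, so the spread between cows is part of them. With the cow as a fixed block, the SE of the diet difference was 0.14 for TGM3 (limma, unadjusted p = 0.201), below that without the block. It was also smaller for CNFN (0.12), CDSN (0.18) and TGM1 (0.17), and larger for IVL (0.17). In either fit, the 4 cows limited the precision.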
